A study of Mus musculus with 6 samples.

Results

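The genes described here encode the enzymes of the glutathione and thioredoxin systems, measured in 3 populations of mouse hair follicle cells. They were chosen by gene symbol in the array's platform annotation: the cytosolic glutathione transferase families Gsta, Gstm, Gstp, Gstt and Gsto, the microsomal transferases (Mgst), the glutathione peroxidases (Gpx), the peroxiredoxins (Prdx), and 14 further enzymes taken by name (Cat, Gclc, Gclm, Gsr, Gss, Nqo1, Sod1, Sod2, Sod3, Srxn1, Txn1, Txn2, Txnrd1 and Txnrd2). By this rule 46 of the 18193 genes with a probe set of their own were members. They comprised 3 Gsta, 7 Gstm, 2 Gstp, 4 Gstt, 2 Gsto, 8 Gpx, 3 Prdx and 3 Mgst genes besides the 14. No filter on low values was applied, and all 46 were tested. On at least 1 array 36 of them lay above the median gene of that array; the other 10 (Gpx3, Gpx5, Gpx6, Gpx7, Gsta3, Gstm3, Gsto2, Gstt2, Gstt4 and Sod3) lay at or below it on every array. Prdx1 and Gsta1 were represented only by probe sets that the annotation pairs with several genes and were not analysed here.

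Glutathione is a cysteine-containing tripeptide that cells make in a pair of steps, beginning with glutamate-cysteine ligase (Gclc with its modifier subunit Gclm) and ending with glutathione synthetase (Gss). Glutathione peroxidases spend it on hydrogen peroxide and lipid peroxides, glutathione transferases couple it to electrophiles, and glutathione reductase (Gsr) regenerates it with NADPH. Thioredoxin, kept reduced by thioredoxin reductase, supplies electrons to peroxiredoxins and to ribonucleotide reductase, which makes the building blocks of DNA. In keratinocytes many of these genes are known targets of the transcription factor Nrf2, which binds antioxidant response elements. Hair follicles cycle between rest, when the stem cells of the bulge divide rarely, and growth, when matrix cells at the follicle base divide fast and build the hair and its sheaths.

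The transient-amplifying matrix cells (HF-TAC) came from mice of postnatal days 28 to 30 and were sorted by GFP, integrin α6 and ephrinB1. The activated stem cells (aHF-SC), from mice of the same ages, were sorted by GFP, integrin α6 and CD34, and the quiescent stem cells (qHF-SC), from mice of postnatal days 52 to 60, by integrin α6 and CD34. All mice were untreated CD-1 females, the tissue was back skin, and each population had 2 Affymetrix arrays, labelled from 2 µg of total RNA. The labels give no genotype beyond the GFP, name neither the cells that carry it nor the sides of the gates, and do not say that the arrays of a group came from separate mice. HF-TAC and aHF-SC share their ages and differ in the sorting gate, while qHF-SC differs from both in age as well as gate. The part of the gate in every comparison, and of age in the comparisons with qHF-SC, cannot be told apart from cell state. With bulk RNA of sorted cells, fewer cells of one kind and less RNA per cell cannot be told apart either.

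Median intensities were alike, from 22.8 to 23.9 over the 6 arrays, and replicate arrays correlated at 0.9885 in HF-TAC, 0.9911 in aHF-SC and 0.9915 in qHF-SC across genes on the log2 scale. Marker levels followed the labelled cell types. The geometric mean of 8 bulge markers was 309 and 358 in HF-TAC, 1800 and 2230 in aHF-SC, and 2420 and 2220 in qHF-SC. That of 10 matrix markers was 524 and 872 in HF-TAC, 121 and 130 in aHF-SC, and 75.4 and 59.2 in qHF-SC. Of the genes of the sorting gates, Cd34 had 15.3 and 25.7 in HF-TAC, 2385 and 3250.1 in aHF-SC, and 7186 and 8557 in qHF-SC. Efnb1 (ephrinB1) had 845 and 1009.6 in HF-TAC, 727 and 795 in aHF-SC, and 581 and 421 in qHF-SC, and Itga6 (integrin α6) had 1069.9 and 854 in HF-TAC, 2772 and 2277 in aHF-SC, and 2812 and 2120.2 in qHF-SC. Efnb1 did not pass the test between HF-TAC and aHF-SC (limma adjusted p = 0.448). The HF-TAC arrays differed from each other in markers of neighbouring layers: 8 inner root sheath and hair shaft markers averaged 653 and 1330 in HF-TAC, 76.3 and 116 in aHF-SC, and 23.5 and 19.6 in qHF-SC, with 7 of the 8 called higher in HF-TAC than in aHF-SC and 5 higher in aHF-SC than in qHF-SC. The 7 differentiated keratinocyte markers averaged 1930 and 1020 in HF-TAC, 519 and 393 in aHF-SC, and 1250 and 1040 in qHF-SC. A list of 14 dissociation stress genes (immediate early and heat shock genes) averaged 3720 and 2720 in HF-TAC, 3930 and 6230 in aHF-SC, and 1380 and 1120 in qHF-SC. Of these, 10 were higher in aHF-SC than in qHF-SC and 11 were higher in HF-TAC than in qHF-SC by the same test. In each comparison with qHF-SC they thus ran in the same direction as the redox genes called higher there. Not every such redox gene was higher in both comparisons, as Mgst1, Mgst3 and Sod2 were higher in HF-TAC only. For HF-TAC minus aHF-SC limma called none of the 14, but their median log2 difference was -0.72. There 8 of them had an unadjusted p under 0.05. Their part in the results of any comparison was not tested. The averages of endothelial and erythroid markers stayed at 11.9 to 20.3 and that of immune markers at 25.3 to 34.2, while melanocyte markers (31.8 to 75.4) and dermal fibroblast markers (29.8 to 76.1) were highest on HF-TAC replicate 2.

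The 300 bases around the start sites of these genes were searched for the core letters of the antioxidant response element, TGACNNNGC, or GCNNNGTCA on the other strand, in the RefSeq promoters of build GRCm38.p6 (250 bases before to 50 after the start). Of the 46 genes, 41 matched an entry. The other 5, Gclc, Gsr, Gsta4, Gstt2 and Sod3, had none and were not searched. Of the 41, 8 (19.5%) held the letters in any of their promoters, against 14.8% of 17492 protein-coding genes. Counted by promoter, 8 of 54 (14.8%) held them, against 13% of 21263 promoters of protein-coding genes and 12.4% of 32851 promoters of all genes. The 8 were Gclm, Gsta3, Gstm5, Gstm7, Mgst1, Sod1, Srxn1 and Txnrd1. A match is a string of letters, not a measured binding site. The promoters of the 6 among them that passed a test between populations are printed. Called members without a match, such as Gstm6 and Gstt1, or without an entry, such as Gclc, are not. Each promoter runs 5′ to 3′ in the direction of its gene, with the matching letters in capitals. The table holds 3 promoters of Txnrd1 and 2 each of Gstm7 and Mgst1; for each of these genes the letters were found in 1 of them, the one printed.
Gclm: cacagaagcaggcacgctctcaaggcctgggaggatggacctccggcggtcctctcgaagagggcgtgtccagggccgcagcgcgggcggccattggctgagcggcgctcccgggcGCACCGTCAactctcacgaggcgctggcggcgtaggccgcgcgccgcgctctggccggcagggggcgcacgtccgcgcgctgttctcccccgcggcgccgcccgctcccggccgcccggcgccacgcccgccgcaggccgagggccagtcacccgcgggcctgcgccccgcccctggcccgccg
Txnrd1: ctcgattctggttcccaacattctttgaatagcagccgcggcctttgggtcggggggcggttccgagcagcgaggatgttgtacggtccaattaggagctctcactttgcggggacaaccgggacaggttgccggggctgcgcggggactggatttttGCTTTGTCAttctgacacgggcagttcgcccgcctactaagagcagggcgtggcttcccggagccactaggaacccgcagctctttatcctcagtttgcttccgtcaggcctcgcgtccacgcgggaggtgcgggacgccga
Sod1: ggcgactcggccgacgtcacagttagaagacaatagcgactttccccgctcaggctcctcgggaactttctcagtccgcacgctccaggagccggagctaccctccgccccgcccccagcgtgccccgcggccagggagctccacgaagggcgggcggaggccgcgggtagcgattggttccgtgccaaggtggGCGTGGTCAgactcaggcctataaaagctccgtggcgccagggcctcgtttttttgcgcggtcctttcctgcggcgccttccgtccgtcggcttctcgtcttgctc
Gstm5: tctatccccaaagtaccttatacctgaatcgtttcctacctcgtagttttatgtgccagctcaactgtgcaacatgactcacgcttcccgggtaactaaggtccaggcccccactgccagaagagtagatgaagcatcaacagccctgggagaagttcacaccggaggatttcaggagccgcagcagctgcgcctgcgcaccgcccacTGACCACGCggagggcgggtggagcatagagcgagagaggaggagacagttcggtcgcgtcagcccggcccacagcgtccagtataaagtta
Gstm7: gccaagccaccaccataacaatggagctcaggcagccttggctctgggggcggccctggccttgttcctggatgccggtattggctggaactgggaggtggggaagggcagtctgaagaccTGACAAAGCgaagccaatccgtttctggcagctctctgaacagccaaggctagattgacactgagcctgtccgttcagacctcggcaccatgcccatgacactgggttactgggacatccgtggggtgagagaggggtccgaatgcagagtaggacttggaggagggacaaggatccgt
Mgst1: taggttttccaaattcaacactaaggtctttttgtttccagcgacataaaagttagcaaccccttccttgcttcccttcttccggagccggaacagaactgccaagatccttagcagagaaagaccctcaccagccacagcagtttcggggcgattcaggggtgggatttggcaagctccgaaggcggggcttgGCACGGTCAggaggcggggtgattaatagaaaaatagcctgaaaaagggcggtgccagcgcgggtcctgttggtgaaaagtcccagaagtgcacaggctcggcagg
The windows lie at chr3:122245307-122245606 (plus strand) for Gclm, chr10:82858956-82859255 (plus strand) for Txnrd1, chr16:90220512-90220811 (plus strand) for Sod1, chr3:107895604-107895903 (plus strand) for Gstm5, chr3:107931565-107931864 (minus strand) for Gstm7 and chr6:138140277-138140576 (plus strand) for Mgst1.

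Across the 46 genes, redox enzymes were more often lower than higher in HF-TAC relative to aHF-SC, and more often higher than lower in aHF-SC relative to qHF-SC. Between HF-TAC and aHF-SC, 5 members were higher and 12 lower in HF-TAC (37% of members), where 17.5% of all genes were called, 8.97% higher and 8.57% lower. Between HF-TAC and qHF-SC, 9 were higher and 9 lower in HF-TAC (39.1%), against 26.3% of all genes, 13.4% higher and 12.9% lower. Between aHF-SC and qHF-SC, aHF-SC had 7 higher members and 1 lower member (17.4%), against 6.28% of all genes, 3.07% higher and 3.21% lower. The calls are limma's moderated test on log2 intensities at a Benjamini-Hochberg adjusted p under 0.05, adjusted over all 18193 genes within each comparison, and neighbouring comparisons share arrays. The median log2 difference of members was -0.19 for HF-TAC minus aHF-SC, -0.04 for HF-TAC minus qHF-SC and 0.18 for aHF-SC minus qHF-SC, where all genes had -0.01, -0.01 and 0. A test for any difference among the 3 populations (limma's moderated F) called 23 of 46 members, 50%, against 26% of all genes, and 20 members passed no comparison. No overlap of arrays was seen for 32 members between HF-TAC and aHF-SC, 33 between HF-TAC and qHF-SC and 30 between aHF-SC and qHF-SC, where 54.3%, 61.2% and 50.8% of all genes did not overlap.

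With single arrays left out, the count between aHF-SC and qHF-SC was the least steady. It was 2 and 3 higher on leaving out aHF-SC replicate 1 and 2, and 6 and 1 higher on leaving out qHF-SC replicate 1 and 2, and the call of Txnrd2 as lower ended in each of these. Between HF-TAC and aHF-SC the higher members then numbered 4 and 3 (without aHF-SC replicate 1 and 2) and 3 and 6 (without HF-TAC replicate 1 and 2), and the lower ones 8, 8, 14 and 8. Between HF-TAC and qHF-SC they numbered 8 and 4 (without qHF-SC replicate 1 and 2) and 5 and 8 (without HF-TAC replicate 1 and 2), and the lower ones 8, 8, 14 and 8. The members that stayed past the threshold whichever array was left out numbered 10 of 17 for HF-TAC minus aHF-SC, 10 of 18 for HF-TAC minus qHF-SC and 1 of 8, Gclc, for aHF-SC minus qHF-SC. A group with 1 array left was assumed to vary like the others. Counts over all genes in these fits are not given here, so the changes cannot be read as particular to the members. Below, a gene passed or was called by the fit to all 6 arrays without an added offset unless another setting is named.

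**Figure D1:**
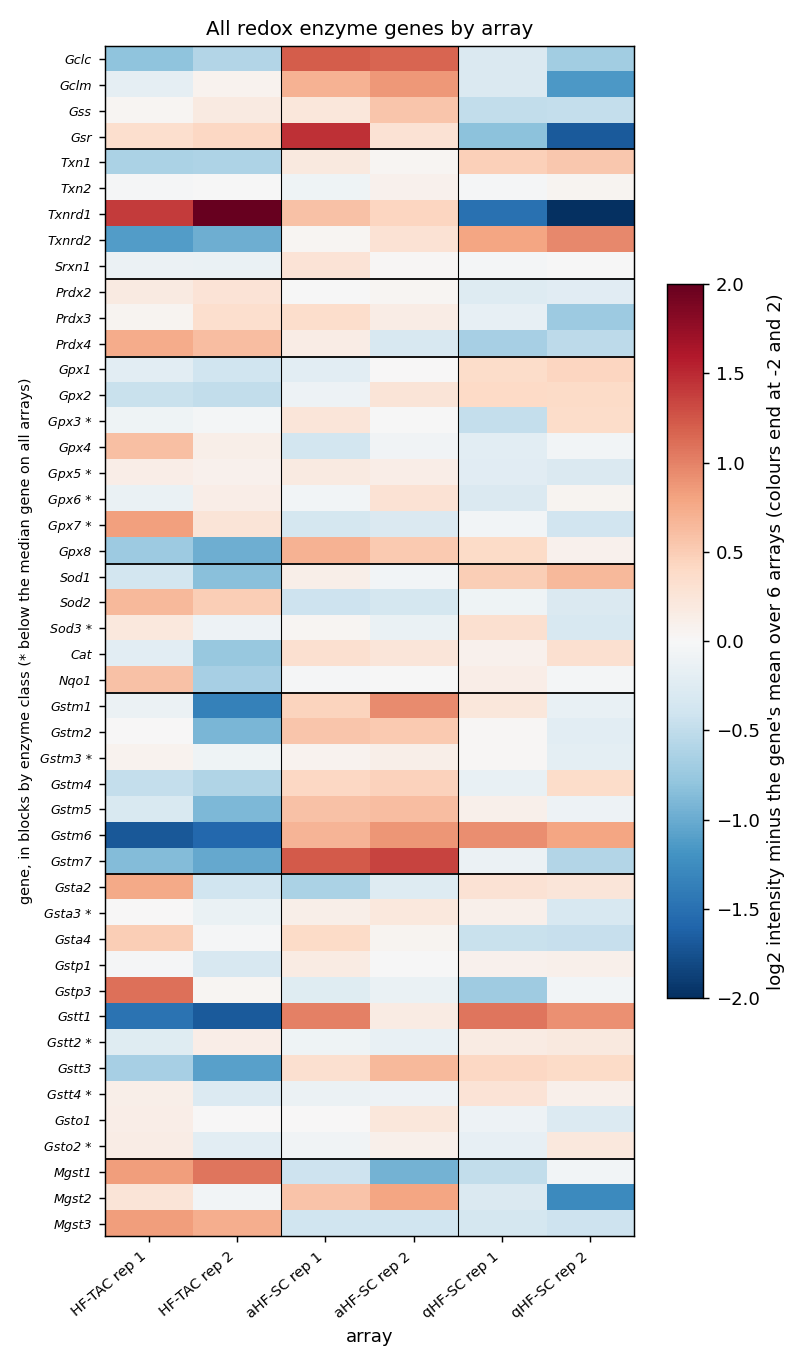
Log2 intensity of each of the 46 genes relative to its own mean over the 6 arrays, one column per array (HF-TAC, aHF-SC, qHF-SC) and one row per gene, grouped by enzyme class. Gclc, Gclm and Gstm7 stand out as high in aHF-SC, Gstm6 and Gstt1 as low in HF-TAC, and Mgst1, Mgst3, Sod2 and Prdx4 as high in HF-TAC.

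All 4 enzymes of glutathione synthesis and reduction were higher in aHF-SC than in qHF-SC, where 3.07% of all genes were called higher. Of the 4, Gclc was lower again in HF-TAC than in aHF-SC. Gclc, the catalytic and rate-limiting subunit of glutamate-cysteine ligase, had an intensity of 742 and 860.4 in HF-TAC, 2985 and 2897 in aHF-SC, and 1054 and 793 in qHF-SC. Both aHF-SC arrays lay above every other array, and the HF-TAC and qHF-SC arrays overlapped. Gclc fell 3.68-fold (log2 difference -1.88 ± 0.19 SE, adjusted p = 0.00104) in HF-TAC relative to aHF-SC and rose 3.22-fold (log2 difference 1.69 ± 0.19 SE, adjusted p = 0.00598) in aHF-SC relative to qHF-SC. HF-TAC minus qHF-SC was -0.19 ± 0.19 on the log2 scale (SE, adjusted p = 0.536). Its second probe set gave a log2 difference of 1.67 for aHF-SC minus qHF-SC. No array left out ended either call.

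Gclm, the modifier subunit that eases feedback inhibition of the ligase, was also brightest in aHF-SC, with 820.4 and 979 in HF-TAC, 1509 and 1703 in aHF-SC, and 762 and 419 in qHF-SC. The aHF-SC arrays were again above the others, and the qHF-SC arrays differed from each other by more than 1.5-fold. It rose 2.84-fold (log2 difference 1.51 ± 0.28 SE, adjusted p = 0.0258) in aHF-SC relative to qHF-SC. A second probe set of Gclm gave 0.98 (adjusted p = 0.0602 in a limma fit over all probe sets). HF-TAC minus aHF-SC was -0.84 ± 0.28 on the log2 scale (SE, adjusted p = 0.0854). The rise missed the threshold on leaving out qHF-SC replicate 2, aHF-SC replicate 1 or aHF-SC replicate 2 (adjusted p = 0.1, 0.0982 and 0.116), and with 16 or 50 added to each intensity (adjusted p = 0.0696 and 0.0982). HF-TAC minus aHF-SC passed with 75th percentile scaling (adjusted p = 0.0446) and with these groups fitted alone (adjusted p = 0.0281). Without qHF-SC replicate 1, Gclm passed for HF-TAC minus qHF-SC as well (log2 difference 1.10, adjusted p = 0.0196).

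Gsr, the NADPH-dependent reductase that returns oxidised glutathione to its reduced form, had 288 and 303 in HF-TAC, 626 and 278 in aHF-SC, and 129 and 71.2 in qHF-SC. Both qHF-SC arrays were lowest, but aHF-SC replicate 1 was more than 1.5-fold above replicate 2, which lay below both HF-TAC arrays. Gsr rose 4.34-fold (log2 difference 2.12 ± 0.41 SE, adjusted p = 0.0289) in aHF-SC and 3.08-fold (log2 difference 1.62 ± 0.41 SE, adjusted p = 0.0238) in HF-TAC, each relative to qHF-SC. In a limma fit over all probe sets, the second probe set of Gsr gave log2 differences of 2.33 and 1.96 (adjusted p = 0.0045 and 0.0012). For aHF-SC minus qHF-SC the log2 difference was 2.71 with aHF-SC replicate 2 left out, but 1.53 with replicate 1 left out (adjusted p = 0.101). Leaving out qHF-SC replicate 2 gave 1.69 (adjusted p = 0.177). For HF-TAC minus qHF-SC the call ended on leaving out HF-TAC replicate 1, HF-TAC replicate 2 or qHF-SC replicate 2 (adjusted p = 0.0688, 0.0863 and 0.143). With 16 or 50 added to each intensity both calls ended, at adjusted p of 0.0851 and 0.131 for aHF-SC minus qHF-SC and of 0.0699 and 0.117 for HF-TAC minus qHF-SC.

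Gss, which adds glycine to finish the tripeptide, had 237 and 262 in HF-TAC, 269.9 and 339 in aHF-SC, and 164 and 166 in qHF-SC. The qHF-SC arrays were nearly equal and below all others. It rose 1.83-fold (log2 difference 0.87 ± 0.17 SE, adjusted p = 0.0295) in aHF-SC and 1.51-fold (log2 difference 0.59 ± 0.17 SE, adjusted p = 0.038) in HF-TAC, each relative to qHF-SC. In the limma fit over all probe sets, a second probe set of Gss gave log2 differences of 0.66 and 0.38 (adjusted p = 0.0481 and 0.127). HF-TAC minus aHF-SC was -0.28 ± 0.17 on the log2 scale (SE, adjusted p = 0.354). Leaving out any single array of the groups compared ended these calls, with adjusted p from 0.0644 to 0.164 for aHF-SC minus qHF-SC and from 0.0688 to 0.15 for HF-TAC minus qHF-SC. So did 50 added to each intensity for aHF-SC minus qHF-SC (adjusted p = 0.0676) and a trended, robust estimate of the spread for HF-TAC minus qHF-SC (adjusted p = 0.0514). The dissociation stress genes, too, were higher in aHF-SC and HF-TAC than in qHF-SC, with the values given above.

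**Figure D2:**
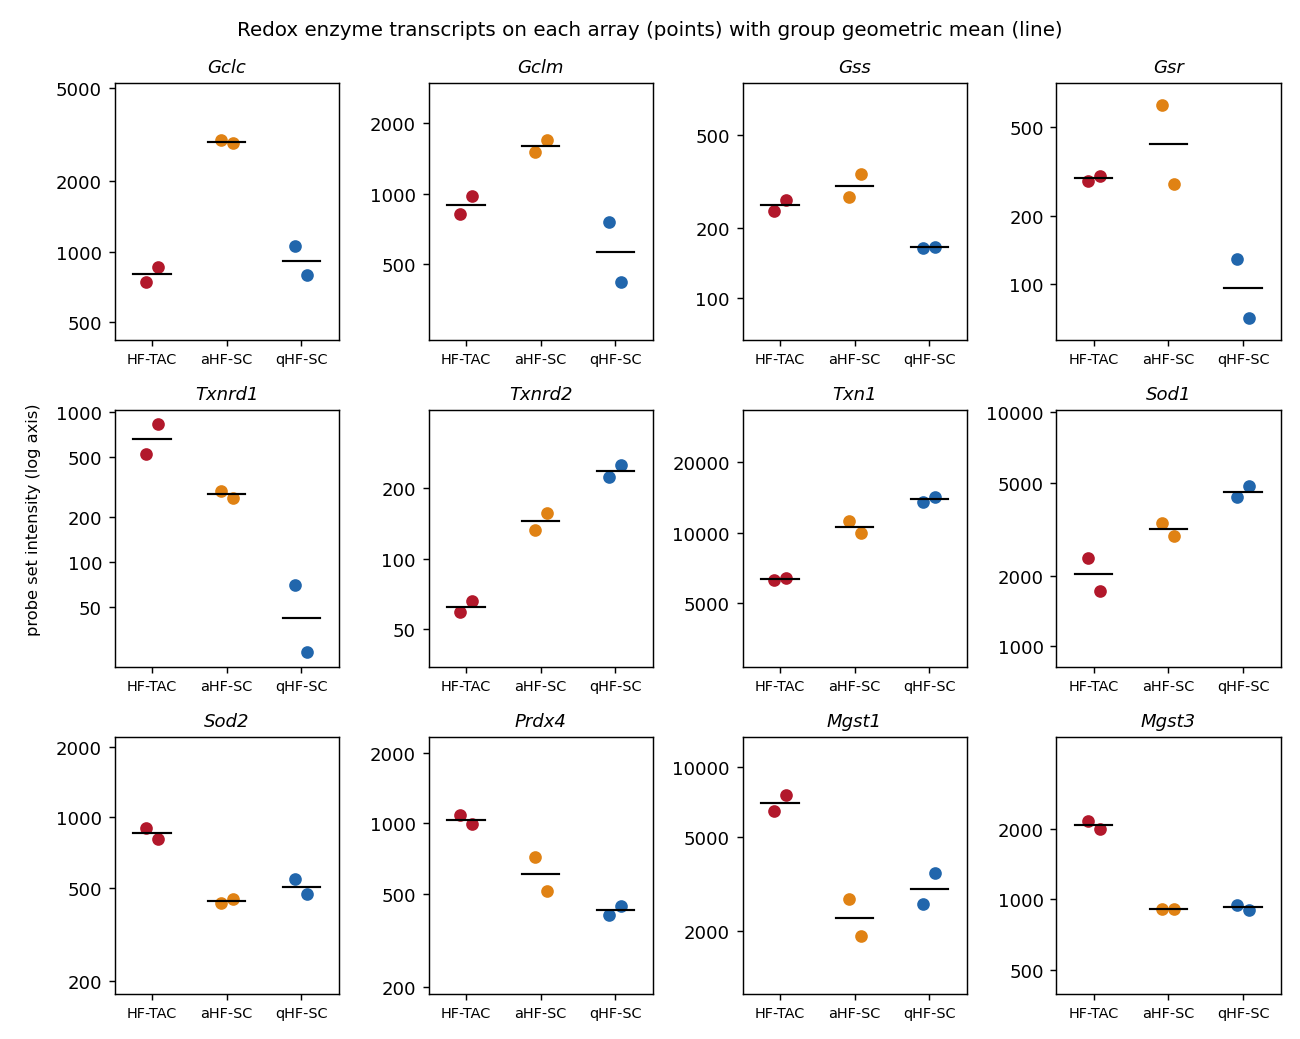
Intensity (log scale) of selected members on each of the 6 arrays, points by population in the order HF-TAC, aHF-SC, qHF-SC, with a line at each population's geometric mean. Both Gclc points of aHF-SC, at 2985 and 2897, lie above all HF-TAC and qHF-SC points.

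The thioredoxin system moved in opposite directions among its 5 members. Txnrd1, the cytosolic thioredoxin reductase and a selenoprotein, had 527 and 823 in HF-TAC, 299 and 267 in aHF-SC, and 70.7 and 25.2 in qHF-SC. The 3 populations did not overlap, with HF-TAC highest and qHF-SC lowest. Txnrd1 rose 15.6-fold (log2 difference 3.96 ± 0.45 SE, adjusted p = 0.000827) in HF-TAC and 6.68-fold (log2 difference 2.74 ± 0.45 SE, adjusted p = 0.0182) in aHF-SC, each relative to qHF-SC. HF-TAC minus aHF-SC was 1.22 ± 0.45 on the log2 scale (SE, adjusted p = 0.117). This gene has 3 probe sets, and with their mean the differences were 1.71 for HF-TAC minus qHF-SC and 1.06 for aHF-SC minus qHF-SC. The qHF-SC arrays differed from each other: HF-TAC minus qHF-SC was 4.71 without qHF-SC replicate 1 and 3.22 without replicate 2, and aHF-SC minus qHF-SC was 3.48 and 2.00. The call for aHF-SC minus qHF-SC was lost on leaving out aHF-SC replicate 1, aHF-SC replicate 2 or qHF-SC replicate 2 (adjusted p = 0.0933, 0.0722 and 0.0571). With 50 added to each intensity the differences were 2.90 for HF-TAC minus qHF-SC and 1.80 for aHF-SC minus qHF-SC, and the aHF-SC call was lost with 16 or 50 added (adjusted p = 0.0564 and 0.0796). HF-TAC minus aHF-SC passed with these groups fitted alone (adjusted p = 0.0231).

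Txn1, the cytosolic thioredoxin that this reductase serves, ran the other way, with 6301 and 6395 in HF-TAC, 11265 and 10039 in aHF-SC, and 13575 and 14298 in qHF-SC. Again the populations did not overlap, here with HF-TAC lowest. Txn1 fell 2.19-fold (log2 difference -1.13 ± 0.15 SE, adjusted p = 0.00144) in HF-TAC relative to qHF-SC and 1.68-fold (log2 difference -0.74 ± 0.15 SE, adjusted p = 0.014) relative to aHF-SC. aHF-SC minus qHF-SC was -0.39 ± 0.15 on the log2 scale (SE, adjusted p = 0.195). The fall relative to aHF-SC did not pass without aHF-SC replicate 1 (adjusted p = 0.0734) or without HF-TAC replicate 2 (adjusted p = 0.0504).

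Txnrd2, the mitochondrial thioredoxin reductase, had 59.3 and 65.6 in HF-TAC, 132 and 157 in aHF-SC, and 223 and 251 in qHF-SC, lowest in HF-TAC and highest in qHF-SC with no overlap. It fell 3.79-fold (log2 difference -1.92 ± 0.16 SE, adjusted p = 0.000283) in HF-TAC relative to qHF-SC, 2.31-fold (log2 difference -1.21 ± 0.16 SE, adjusted p = 0.00315) in HF-TAC relative to aHF-SC, and 1.64-fold (log2 difference -0.72 ± 0.16 SE, adjusted p = 0.0498) in aHF-SC relative to qHF-SC. These calls rest on 1 of 4 probe sets. With the mean of the 4, the log2 differences were -0.49 for HF-TAC minus qHF-SC (adjusted p = 0.0326), -0.41 for HF-TAC minus aHF-SC (adjusted p = 0.0838) and -0.09 for aHF-SC minus qHF-SC (adjusted p = 0.796). The last call also ended with any single array of its groups left out (adjusted p from 0.0965 to 0.276), and under median centring, either offset, a trended and robust spread, a fit of its groups alone and the replicate block (adjusted p from 0.0555 to 0.0731). Its partner Txn2, the mitochondrial thioredoxin, had 601 and 609.8 in HF-TAC, 575 and 652 in aHF-SC, and 601 and 638 in qHF-SC, with all 3 groups overlapping. Srxn1, the sulfiredoxin that repairs overoxidised peroxiredoxins, had 46.9 and 46.2 in HF-TAC, 61.5 and 51.8 in aHF-SC, and 49.6 and 50.3 in qHF-SC. Neither passed any comparison.

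Of the 3 peroxiredoxins, 1 was higher in HF-TAC than in aHF-SC and 2 were higher in HF-TAC than in qHF-SC. Of all genes, 8.97% and 13.4% were called higher in these comparisons. Prdx4, the peroxiredoxin of the endoplasmic reticulum, had 1079.95 and 990.04 in HF-TAC, 716 and 513 in aHF-SC, and 405 and 445 in qHF-SC. Its arrays did not overlap between any groups. It rose 2.44-fold (log2 difference 1.28 ± 0.19 SE, adjusted p = 0.00282) in HF-TAC relative to qHF-SC and 1.71-fold (log2 difference 0.77 ± 0.19 SE, adjusted p = 0.0348) relative to aHF-SC. The rise relative to aHF-SC did not pass without aHF-SC replicate 2 (adjusted p = 0.169), HF-TAC replicate 1 (adjusted p = 0.117) or HF-TAC replicate 2 (adjusted p = 0.0845), nor under 75th percentile scaling, with 50 added or with these groups fitted alone (adjusted p = 0.0503, 0.0652 and 0.0611). Prdx2, an abundant cytosolic peroxiredoxin, had 4765 and 5063 in HF-TAC, 4181 and 4301 in aHF-SC, and 3499 and 3579.7 in qHF-SC. It rose 1.39-fold (log2 difference 0.47 ± 0.14 SE, adjusted p = 0.0471) in HF-TAC relative to qHF-SC. That rise ended with any array of these groups left out (adjusted p from 0.0923 to 0.174), and under 75th percentile scaling, a fit of these groups alone and the replicate block (adjusted p = 0.0823, 0.0709 and 0.0677). Averaged over its probe sets it was 0.19 (adjusted p = 0.34), and a dim probe set of Prdx2, between 39.3 and 46.5, had the opposite sign. Prdx3, the mitochondrial peroxiredoxin, had 365 and 442 in HF-TAC, 449.7 and 389.8 in aHF-SC, and 315 and 213 in qHF-SC and passed no comparison. Without qHF-SC replicate 1, HF-TAC minus qHF-SC passed (log2 difference 0.91, adjusted p = 0.0398).

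Among the 8 glutathione peroxidases, 1 was higher and 1 lower in HF-TAC than in aHF-SC. In HF-TAC relative to qHF-SC, 1 was higher and 3 were lower. Of all genes, 8.97% were higher and 8.57% lower in the first comparison, and 13.4% and 12.9% in the second. Between aHF-SC and qHF-SC limma called none of the 8, against 6.28% of all genes, and 2 had an unadjusted p under 0.05. Gpx8, a membrane peroxidase of the endoplasmic reticulum without selenocysteine, had 395 and 330.1 in HF-TAC, 1048 and 938 in aHF-SC, and 852 and 693 in qHF-SC. The HF-TAC arrays lay far below all others. Gpx8 fell 2.75-fold (log2 difference -1.46 ± 0.18 SE, adjusted p = 0.00214) in HF-TAC relative to aHF-SC and 2.13-fold (log2 difference -1.09 ± 0.18 SE, adjusted p = 0.00408) relative to qHF-SC, and both calls held with any array left out. Gpx7, the closest relative of Gpx8 in the same compartment, ran the other way at a dim level, with 38.4 and 25.9 in HF-TAC, 17.1 and 17.6 in aHF-SC, and 20.9 and 16.5 in qHF-SC, all below the median gene. It rose 1.82-fold (log2 difference 0.86 ± 0.22 SE, adjusted p = 0.038) in HF-TAC relative to aHF-SC and 1.7-fold (log2 difference 0.76 ± 0.22 SE, adjusted p = 0.0419) relative to qHF-SC. Its rise relative to aHF-SC ended on leaving out HF-TAC replicate 1 or either aHF-SC array (adjusted p = 0.136, 0.133 and 0.133). Its rise relative to qHF-SC ended on leaving out HF-TAC replicate 1 or qHF-SC replicate 1 or 2 (adjusted p = 0.177, 0.0684 and 0.219). With 16 or 50 added, or with the groups compared fitted alone, neither rise passed (adjusted p from 0.0538 to 0.125), nor did the rise relative to qHF-SC under 75th percentile scaling (adjusted p = 0.0503).

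Gpx1, the ubiquitous selenoperoxidase of cytosol and mitochondria, had 5792 and 5096 in HF-TAC, 5795 and 6685 in aHF-SC, and 8615 and 9046 in qHF-SC. The qHF-SC arrays were highest, and HF-TAC and aHF-SC did not overlap by a narrow margin. It fell 1.62-fold (log2 difference -0.70 ± 0.16 SE, adjusted p = 0.0157) in HF-TAC relative to qHF-SC, a call that ended without qHF-SC replicate 1 or 2 or HF-TAC replicate 2 (adjusted p = 0.0648, 0.0902 and 0.0773). With a trended, robust spread Gpx1 also passed for aHF-SC minus qHF-SC (log2 difference -0.50, adjusted p = 0.0497). Gpx2, the epithelial selenoperoxidase, had 94.2 and 91.9 in HF-TAC, 120.1 and 154 in aHF-SC, and 170.3 and 167 in qHF-SC. It fell 1.81-fold (log2 difference -0.86 ± 0.17 SE, adjusted p = 0.00885) in the same comparison, which ended without qHF-SC replicate 1 or 2 (adjusted p = 0.0521 and 0.0508). With quantile normalization it passed for HF-TAC minus aHF-SC as well (log2 difference -0.56, adjusted p = 0.0474). Gpx4, the selenoenzyme that reduces lipid peroxides in membranes, had 4808 and 3436 in HF-TAC, 2462 and 3027 in aHF-SC, and 2760.04 and 3060.2 in qHF-SC. Its HF-TAC arrays were the highest, but it passed no comparison; HF-TAC minus aHF-SC was 0.57 ± 0.21 on the log2 scale (SE, adjusted p = 0.112). The secreted Gpx3 and its relatives Gpx5 and Gpx6 stayed between 14.4 and 38.6 on all arrays and passed no comparison.

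The superoxide dismutases of mitochondria and cytosol differed in direction in HF-TAC. Sod2, the mitochondrial manganese enzyme, had 899 and 810.5 in HF-TAC, 432 and 449 in aHF-SC, and 543 and 469 in qHF-SC. Both HF-TAC arrays were above all others. Sod2 rose 1.94-fold (log2 difference 0.95 ± 0.16 SE, adjusted p = 0.00631) in HF-TAC relative to aHF-SC and 1.69-fold (log2 difference 0.76 ± 0.16 SE, adjusted p = 0.0107) relative to qHF-SC; the rise relative to qHF-SC did not pass without qHF-SC replicate 2 (adjusted p = 0.0773). Of its 3 other probe sets, a pair agreed in sign, and a dim one, between 29.4 and 48.0, had the opposite sign in both comparisons. Sod1, the copper-zinc enzyme of the cytosol, had 2386 and 1730.3 in HF-TAC, 3362 and 2961 in aHF-SC, and 4322 and 4843 in qHF-SC, in non-overlapping order with qHF-SC highest. It fell 2.25-fold (log2 difference -1.17 ± 0.20 SE, adjusted p = 0.00447) in HF-TAC relative to qHF-SC. A second bright probe set gave -1.22 for that difference, a dim pair -0.46 and -0.88, and the last, between 5.23 and 5.98 on every array, 0. HF-TAC minus aHF-SC was -0.64 ± 0.20 on the log2 scale (SE, adjusted p = 0.0686), which passed without HF-TAC replicate 1 (log2 difference -0.87, adjusted p = 0.0314) and with a trended, robust spread (adjusted p = 0.0372). The extracellular Sod3 stayed between 12.9 and 20.05 and passed no comparison.

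Cat, the catalase of peroxisomes, had 1244 and 845 in HF-TAC, 1779 and 1695 in aHF-SC, and 1522 and 1786 in qHF-SC. The HF-TAC arrays were lowest and did not overlap the others. Cat fell 1.69-fold (log2 difference -0.76 ± 0.21 SE, adjusted p = 0.0486) in HF-TAC relative to aHF-SC. HF-TAC minus qHF-SC was -0.69 ± 0.21 on the log2 scale (SE, adjusted p = 0.0517). The fall relative to aHF-SC ended without aHF-SC replicate 1 or 2 or HF-TAC replicate 2 (adjusted p = 0.166, 0.153 and 0.196). It also ended under 75th percentile scaling, either offset, array weights, a fit of these groups alone and the replicate block (adjusted p from 0.0526 to 0.0976). The difference from qHF-SC passed without HF-TAC replicate 1 (log2 difference -0.96, adjusted p = 0.0151), and with quantile normalization, the filter on dim genes, the mean of probe sets, array weights and a trended, robust spread (adjusted p from 0.0338 to 0.0468). Nqo1, the quinone reductase often used as a readout of Nrf2, had 275 and 116 in HF-TAC, 181 and 181 in aHF-SC, and 200.02 and 178 in qHF-SC. The HF-TAC arrays lay on either side of all others, and Nqo1 passed no comparison; without HF-TAC replicate 1 it passed for HF-TAC minus qHF-SC (log2 difference -0.70, adjusted p = 0.0392).

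**Figure D3:**
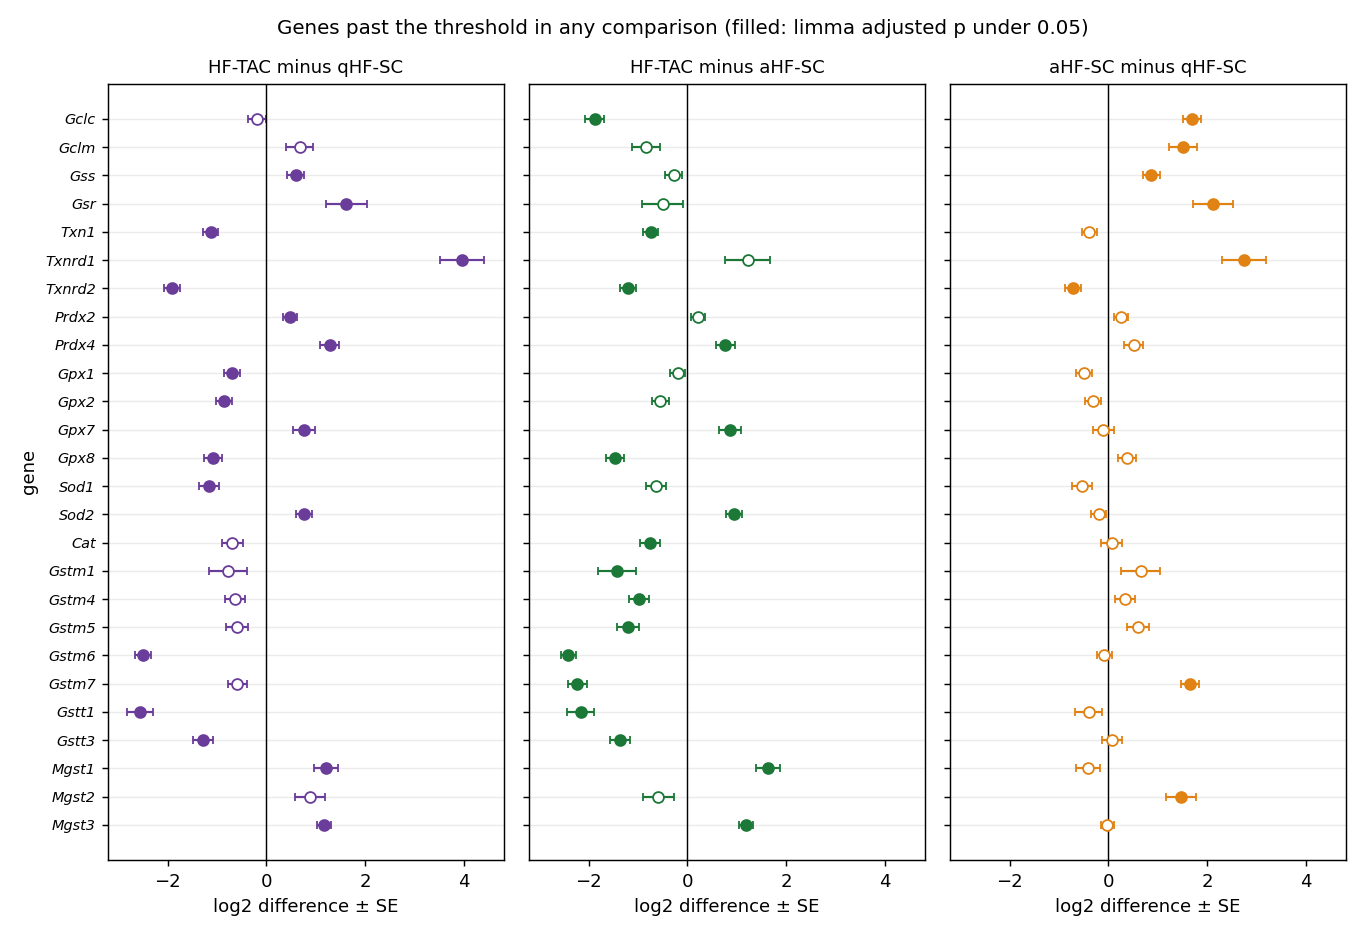
Log2 difference (point) with its standard error (bar) for the 26 members called in any comparison, drawn for HF-TAC minus qHF-SC, HF-TAC minus aHF-SC and aHF-SC minus qHF-SC; filled points passed the threshold. Txnrd1, at 3.96, is farthest to the right for HF-TAC minus qHF-SC, and the mu class and theta class transferases lie to the left for HF-TAC minus aHF-SC.

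The mu class of glutathione transferases, enzymes that conjugate electrophiles such as quinones and aldehydes, was lower in HF-TAC than in aHF-SC for 5 of its 7 genes. Of all genes, 8.57% were called lower in that comparison. The median log2 difference of the 7 was -1.20 for HF-TAC minus aHF-SC, -0.60 for HF-TAC minus qHF-SC and 0.60 for aHF-SC minus qHF-SC. On chromosome 3 the 7 genes are consecutive protein-coding genes, in the order Gstm5, Gstm7, Gstm6, Gstm3, Gstm2, Gstm1 and Gstm4. They are close in sequence, and how far each probe set reads its neighbours was not tested.

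Gstm6 had 23.9 and 26.2 in HF-TAC, 125 and 143 in aHF-SC, and 148 and 135 in qHF-SC. HF-TAC lay far below both stem cell groups, which overlapped. It fell 5.33-fold (log2 difference -2.41 ± 0.16 SE, adjusted p = 0.000263) in HF-TAC relative to aHF-SC and 5.64-fold (log2 difference -2.50 ± 0.16 SE, adjusted p = 9.29e-05) relative to qHF-SC, and both calls held with any array left out. The HF-TAC values are dim, and with 50 added to each intensity the differences were -1.29 and -1.35. All probe sets of Gstm6, as of Txnrd1, have an ID that ends in _a_at or _x_at, so the setting that leaves such probe sets out gave no value for either gene. Gstm7, next to it, had 24.7 and 22.1 in HF-TAC, 105 and 115 in aHF-SC, and 41.3 and 29.8 in qHF-SC, so that only aHF-SC stood above the median gene. It fell 4.71-fold (log2 difference -2.23 ± 0.19 SE, adjusted p = 0.000663) in HF-TAC relative to aHF-SC and rose 3.13-fold (log2 difference 1.65 ± 0.19 SE, adjusted p = 0.00763) in aHF-SC relative to qHF-SC. With the mean of its probe sets, a pair, these were -1.24 and 0.88, and with 50 added -1.12 and 0.91. The rise narrowly missed the threshold with qHF-SC replicate 2 left out (adjusted p = 0.0533), and without that array HF-TAC minus qHF-SC passed (log2 difference -0.82, adjusted p = 0.0424).

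Gstm5, the first gene of the cluster, whose promoter is printed above, had 2601 and 1710.4 in HF-TAC, 4786 and 4924 in aHF-SC, and 3432 and 2977 in qHF-SC. The aHF-SC arrays were highest and HF-TAC lowest, with no overlap. It fell 2.3-fold (log2 difference -1.20 ± 0.22 SE, adjusted p = 0.00964) in HF-TAC relative to aHF-SC, which ended without aHF-SC replicate 2 (adjusted p = 0.0579). With HF-TAC replicate 1 left out it also passed relative to qHF-SC (log2 difference -0.90, adjusted p = 0.0178). Gstm1 had 512 and 217 in HF-TAC, 759 and 1066 in aHF-SC, and 649.5 and 503 in qHF-SC, with the HF-TAC arrays more than 1.5-fold apart. It fell 2.7-fold (log2 difference -1.43 ± 0.39 SE, adjusted p = 0.0442) in HF-TAC relative to aHF-SC. The difference was -2.05 without HF-TAC replicate 1 and -0.81 without HF-TAC replicate 2 (adjusted p = 0.121). It did not pass without aHF-SC replicate 1 or 2 (adjusted p = 0.08 and 0.212), or with probe sets of ID suffix _a_at, _s_at or _x_at left out (-1.42, adjusted p = 0.0532). Nor did it pass with either offset, the mean of probe sets, these groups alone or the replicate block (adjusted p from 0.0573 to 0.137). Without HF-TAC replicate 1, Gstm1 passed relative to qHF-SC too (log2 difference -1.40, adjusted p = 0.013).

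Gstm4 had 73.8 and 67.7 in HF-TAC, 137 and 141 in aHF-SC, and 92.3 and 132 in qHF-SC. It fell 1.97-fold (log2 difference -0.98 ± 0.20 SE, adjusted p = 0.0148) in HF-TAC relative to aHF-SC. The HF-TAC arrays were the lowest. The call ended without aHF-SC replicate 1 or 2 or HF-TAC replicate 2 (adjusted p = 0.0592, 0.0794 and 0.0661), and without qHF-SC replicate 1 Gstm4 passed relative to qHF-SC (log2 difference -0.90, adjusted p = 0.0257), as it did with the filter on dim genes and the mean of probe sets (adjusted p = 0.0416 and 0.0439). Gstm2, with 607 and 322 in HF-TAC, 885 and 868 in aHF-SC, and 614 and 524 in qHF-SC, passed no comparison. HF-TAC minus aHF-SC was -0.99 ± 0.29 on the log2 scale (SE, adjusted p = 0.0547), and it passed under 75th percentile scaling, the filter on dim genes, a trended, robust spread and the replicate block (adjusted p = 0.0491, 0.0428, 0.0375 and 0.0439). Its HF-TAC arrays were more than 1.5-fold apart, and without HF-TAC replicate 1 it passed relative to aHF-SC (log2 difference -1.45, adjusted p = 0.00554) and relative to qHF-SC (-0.82, adjusted p = 0.0266). Gstm3 stayed between 36.4 and 45.1 and passed none. HF-TAC replicate 2, which had the lower Gstm1 and Gstm2 values, was also the HF-TAC array with the higher inner root sheath and shaft markers; their part was not tested.

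**Figure D4:**
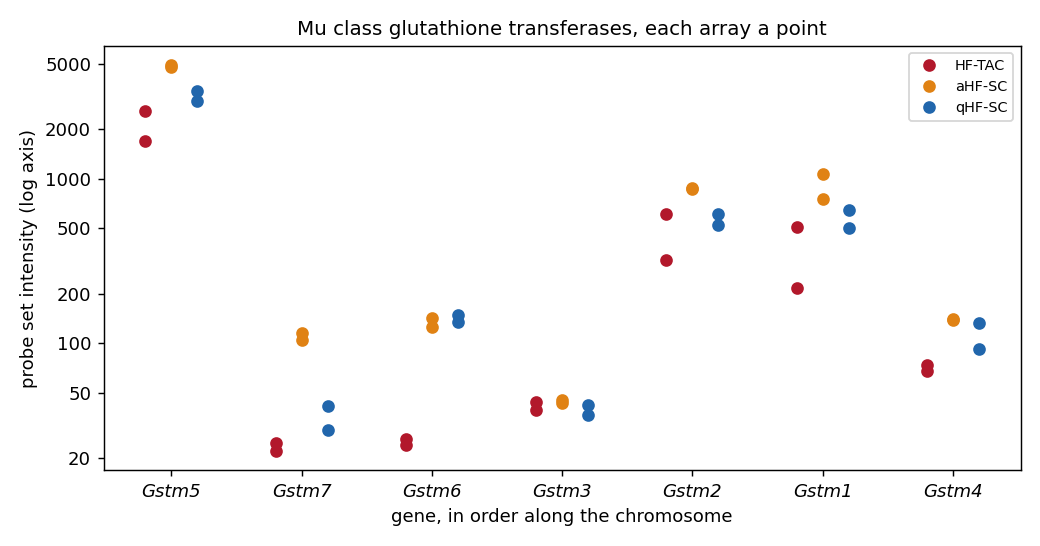
Intensity (log scale) of the 7 mu class transferases on each array, in their order along chromosome 3, with HF-TAC, aHF-SC and qHF-SC side by side. Levels of different genes come from different probes and are not comparable. Within Gstm5, Gstm7, Gstm6, Gstm1 and Gstm4 the HF-TAC arrays lie below the aHF-SC arrays, as they do within Gstm2, which did not pass the test.

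Theta class transferases showed the same direction for a neighbouring pair. Gstt1, which acts on small halogenated molecules, had 27.6 and 24.0 in HF-TAC, 154 and 85.9 in aHF-SC, and 161 and 144 in qHF-SC, with HF-TAC below all other arrays. It fell 4.47-fold (log2 difference -2.16 ± 0.27 SE, adjusted p = 0.00229) in HF-TAC relative to aHF-SC and 5.9-fold (log2 difference -2.56 ± 0.27 SE, adjusted p = 0.000636) relative to qHF-SC, and both held with any array left out; with 50 added to each intensity the sizes were -1.14 and -1.41. Gstt3, beside Gstt1 on chromosome 10, had 118 and 88.4 in HF-TAC, 235 and 295 in aHF-SC, and 250.3 and 247 in qHF-SC. It fell 2.57-fold (log2 difference -1.36 ± 0.20 SE, adjusted p = 0.00394) relative to aHF-SC and 2.43-fold (log2 difference -1.28 ± 0.20 SE, adjusted p = 0.0031) relative to qHF-SC, also with any array left out. Gstt4 and Gstt2, the next protein-coding genes there, stayed between 11.5 and 43.7 and passed no comparison.

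Pi, omega and alpha class genes passed no comparison, although Gstp3, Gsta2, Gsta4 and Gsto1 did under some settings. Gstp1, the pi class enzyme abundant in epidermis, had 6109.6 and 5002 in HF-TAC, 6939.7 and 6179 in aHF-SC, and 6587 and 6667 in qHF-SC. Gsto1, an omega class enzyme with thiol transferase activity, had 1129.7 and 1042 in HF-TAC, 1035 and 1212 in aHF-SC, and 964 and 856 in qHF-SC. For HF-TAC minus aHF-SC they gave -0.24 ± 0.17 on the log2 scale (SE, adjusted p = 0.418) and -0.05 ± 0.16 on the log2 scale (SE, adjusted p = 0.91). Gstp3 (21.9 to 76.5), Gsta2 (42.5 to 95.4), Gsta4 (52.6 to 101), Gsta3 (22.5 to 32.5) and Gsto2 (10.2 to 13.6) were dim or moderate. HF-TAC replicate 1 was the high array for the first 3 of these, and without HF-TAC replicate 2 Gstp3 passed relative to aHF-SC (log2 difference 1.28, adjusted p = 0.0346) and to qHF-SC (1.48, adjusted p = 0.0139), Gsta2 relative to aHF-SC (1.21, adjusted p = 0.018) and Gsta4 relative to qHF-SC (0.94, adjusted p = 0.0243). For Gsta4, HF-TAC minus qHF-SC was 0.69 ± 0.21 on the log2 scale (SE, adjusted p = 0.0522), and it also passed under median centring, the filter on dim genes, the mean of probe sets, array weights and the replicate block (adjusted p from 0.0395 to 0.0479). Gsto1 passed there too when its probe sets were averaged (log2 difference 0.50, adjusted p = 0.046).

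Microsomal transferases, membrane enzymes unrelated in sequence to the cytosolic classes, were higher in HF-TAC than in either stem cell group for 2 of 3 genes. Of all genes, 8.97% were called higher in HF-TAC relative to aHF-SC and 13.4% relative to qHF-SC. Mgst3, which reduces lipid peroxides, had 2157 and 1986 in HF-TAC, 911 and 913 in aHF-SC, and 949 and 902 in qHF-SC. Both stem cell groups overlapped and HF-TAC lay above them. It rose 2.27-fold (log2 difference 1.18 ± 0.14 SE, adjusted p = 0.00212) in HF-TAC relative to aHF-SC and 2.24-fold (log2 difference 1.16 ± 0.14 SE, adjusted p = 0.0012) relative to qHF-SC, and held with any array left out. Mgst1, a transferase and peroxidase of the endoplasmic reticulum and outer mitochondrial membrane, had 6462 and 7605 in HF-TAC, 2717 and 1892 in aHF-SC, and 2597 and 3517 in qHF-SC. Its HF-TAC arrays were highest by a wide margin. It rose 3.09-fold (log2 difference 1.63 ± 0.24 SE, adjusted p = 0.00387) relative to aHF-SC and 2.32-fold (log2 difference 1.21 ± 0.24 SE, adjusted p = 0.0082) relative to qHF-SC, which missed the threshold with qHF-SC replicate 1 left out (adjusted p = 0.0566). These values come from the brighter of its probe sets; with that one left out for the _a_at suffix of its ID, the other, at background, gave 0.15 (adjusted p = 0.632) and 0.10 (adjusted p = 0.733), and the mean of both gave 0.89 for HF-TAC minus aHF-SC. Mgst2, whose protein also makes leukotriene C4, had 151 and 122 in HF-TAC, 189 and 220.1 in aHF-SC, and 104 and 52.6 in qHF-SC. It rose 2.77-fold (log2 difference 1.47 ± 0.31 SE, adjusted p = 0.0387) in aHF-SC relative to qHF-SC. That call ended on leaving out aHF-SC replicate 1, aHF-SC replicate 2 or qHF-SC replicate 2 (adjusted p = 0.122, 0.16 and 0.139), and with 16 or 50 added (adjusted p = 0.0843 and 0.11). Without qHF-SC replicate 1, Mgst2 passed for HF-TAC minus qHF-SC (log2 difference 1.37, adjusted p = 0.0114). Beside the rises in HF-TAC, 7 sebaceous gland markers averaged 169 and 140 in HF-TAC, 77.5 and 91.2 in aHF-SC, and 97.5 and 142 in qHF-SC, and their part was not tested.

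Genes that feed and regulate these enzymes were read from lists of the surrounding pathways. Of 18 genes of cysteine and glutathione supply and breakdown, 2 were higher and 4 lower in HF-TAC than in aHF-SC, 4 higher and 3 lower in HF-TAC than in qHF-SC, and 5 called between aHF-SC and qHF-SC, all higher in aHF-SC. These are 33.3%, 38.9% and 27.8% of the list, where 17.5%, 26.3% and 6.28% of all genes were called in these comparisons. Cbs, which commits homocysteine to cysteine synthesis, had 429 and 404 in HF-TAC, 1612 and 1120.4 in aHF-SC, and 322 and 130.4 in qHF-SC. Both aHF-SC arrays lay above all others. It rose 6.55-fold (log2 difference 2.71 ± 0.40 SE, adjusted p = 0.0132) in aHF-SC relative to qHF-SC and fell 3.23-fold (log2 difference -1.69 ± 0.40 SE, adjusted p = 0.0263) in HF-TAC relative to aHF-SC. The rise ended without aHF-SC replicate 1 (adjusted p = 0.0757) and was 3.37 and 2.06 without qHF-SC replicate 1 and 2; the fall ended with any array of its groups left out (adjusted p from 0.0636 to 0.127). With 16 or 50 added neither passed (adjusted p from 0.0512 to 0.081). Without qHF-SC replicate 1, HF-TAC minus qHF-SC passed (1.67, adjusted p = 0.00923). Oplah, the 5-oxoprolinase that recycles glutamate from glutathione breakdown, had 391 and 320.1 in HF-TAC, 1969.6 and 1897 in aHF-SC, and 1239.8 and 924 in qHF-SC. It fell 5.46-fold (log2 difference -2.45 ± 0.19 SE, adjusted p = 0.000515) in HF-TAC relative to aHF-SC and 3.02-fold (log2 difference -1.60 ± 0.19 SE, adjusted p = 0.00112) relative to qHF-SC. In aHF-SC relative to qHF-SC it rose 1.81-fold (log2 difference 0.85 ± 0.19 SE, adjusted p = 0.0488), which ended with any array left out (adjusted p from 0.0594 to 0.273). Ahcy, which releases homocysteine, had 3182 and 3576 in HF-TAC, 5762 and 4979 in aHF-SC, and 2194 and 1418 in qHF-SC. It rose 3.04-fold (log2 difference 1.60 ± 0.23 SE, adjusted p = 0.0123) in aHF-SC and 1.91-fold (log2 difference 0.94 ± 0.23 SE, adjusted p = 0.0209) in HF-TAC relative to qHF-SC. The first call ended on leaving out aHF-SC replicate 1 or qHF-SC replicate 2 (adjusted p = 0.0725 and 0.0661), the second on leaving out HF-TAC replicate 2 or qHF-SC replicate 2 (adjusted p = 0.0915 and 0.108). With 50 added the adjusted p was 0.0644 and 0.06.

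Transporters of the raw materials and a breakdown enzyme followed. Slc3a2, the shared heavy chain of amino acid exchangers that include the cystine carrier, had 1191 and 1258 in HF-TAC, 3325 and 3133 in aHF-SC, and 2196 and 1869 in qHF-SC, highest in aHF-SC. It fell 2.64-fold (log2 difference -1.40 ± 0.16 SE, adjusted p = 0.00155) in HF-TAC relative to aHF-SC. Slc1a4, a carrier of small neutral amino acids, had 159 and 155 in HF-TAC, 885 and 650.2 in aHF-SC, and 348 and 212 in qHF-SC. It fell 4.84-fold (log2 difference -2.28 ± 0.26 SE, adjusted p = 0.00172) in HF-TAC relative to aHF-SC and rose 2.8-fold (log2 difference 1.48 ± 0.26 SE, adjusted p = 0.0225) in aHF-SC relative to qHF-SC. That rise ended on leaving out aHF-SC replicate 1, aHF-SC replicate 2 or qHF-SC replicate 2 (adjusted p = 0.114, 0.051 and 0.115). Ggct, the cyclotransferase that opens gamma-glutamyl peptides, had 225 and 259 in HF-TAC, 334 and 286 in aHF-SC, and 156 and 106 in qHF-SC. It rose 2.41-fold (log2 difference 1.27 ± 0.22 SE, adjusted p = 0.0209) in aHF-SC relative to qHF-SC. That call ended on leaving out any of the same 3 arrays (adjusted p = 0.111, 0.0649 and 0.119). With its probe sets of ID suffix _a_at, _s_at or _x_at left out the difference was 0.34 (adjusted p = 0.361). With 16 or 50 added to each intensity limma called none of Oplah, Slc1a4 and Ggct between aHF-SC and qHF-SC (adjusted p from 0.0535 to 0.0971). Oplah also missed the threshold there under median centring and quantile normalization (adjusted p = 0.0522 and 0.0625). In HF-TAC relative to qHF-SC, Cth, which makes cysteine from cystathionine, rose 2.42-fold (log2 difference 1.28 ± 0.22 SE, adjusted p = 0.00529) and Chac1, which breaks glutathione down, fell 2.02-fold (log2 difference -1.02 ± 0.20 SE, adjusted p = 0.00823).

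**Figure D5:**
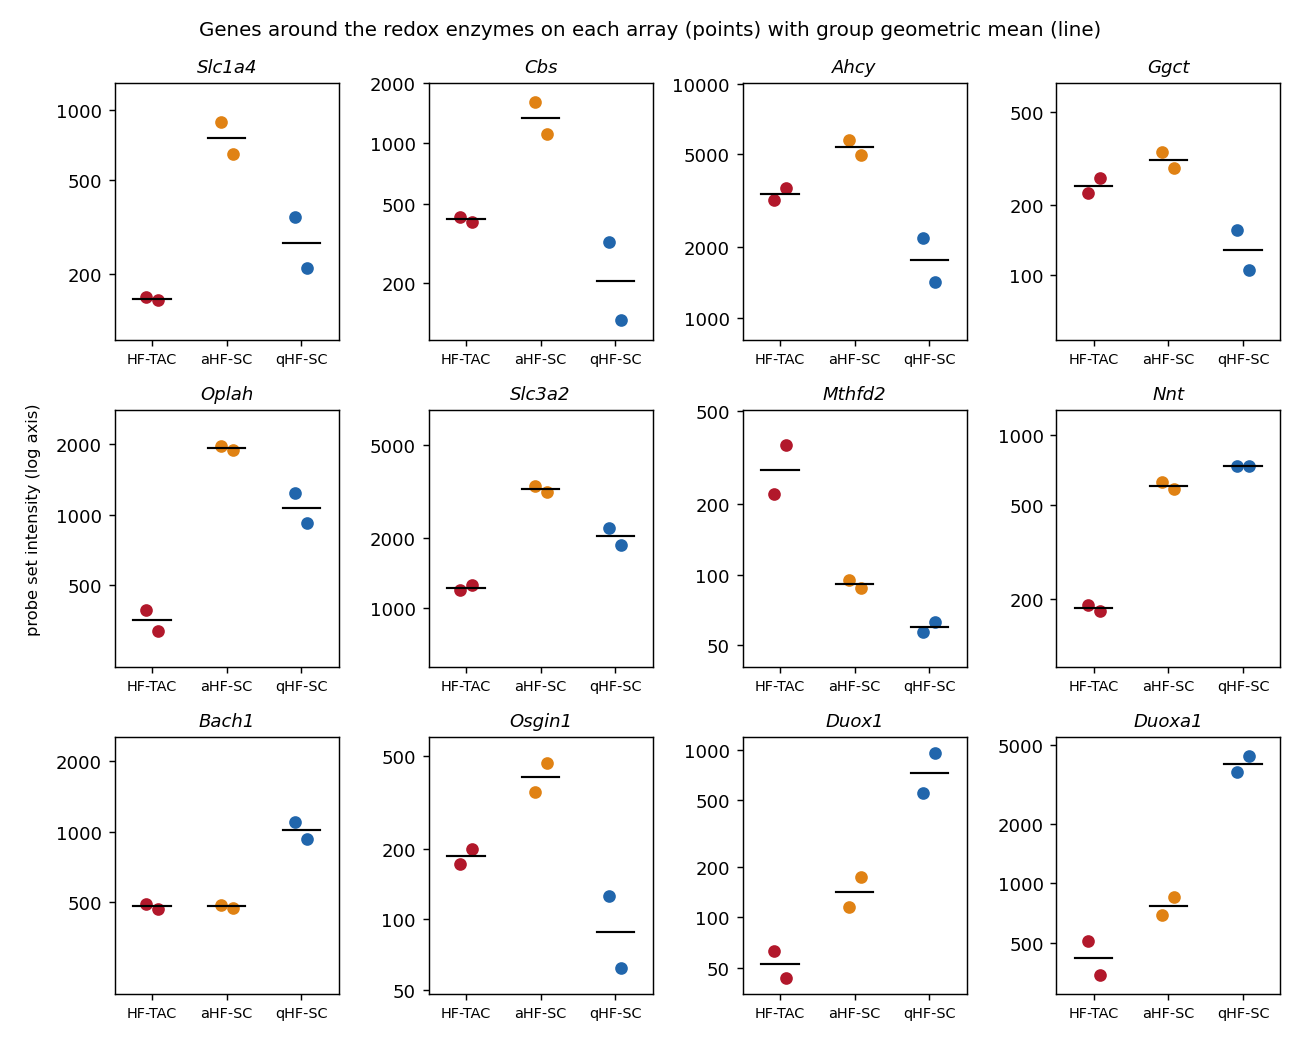
Probe set intensity (log axis) of 12 genes around the redox enzymes on each array (points) in HF-TAC, aHF-SC and qHF-SC, with a line at the geometric mean of each group. Cbs, at 1612 and 1120.4, and Oplah, at 1969.6 and 1897, are highest in aHF-SC, Mthfd2 in HF-TAC, and Duox1 in qHF-SC.

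Of 15 genes of NADPH supply, 9 were higher and 2 lower in HF-TAC than in qHF-SC, 1 higher and 1 lower in HF-TAC than in aHF-SC, and 2 called between aHF-SC and qHF-SC, both higher in aHF-SC. These are 73.3%, 13.3% and 13.3% of the list, against 26.3%, 17.5% and 6.28% of all genes, and the median log2 differences were 0.58, 0.37 and 0.19. Mthfd2, the mitochondrial folate dehydrogenase, had 219.8 and 358 in HF-TAC, 94.7 and 87.9 in aHF-SC, and 57.0 and 62.8 in qHF-SC. It rose 4.69-fold (log2 difference 2.23 ± 0.24 SE, adjusted p = 0.000641) in HF-TAC relative to qHF-SC and 3.07-fold (log2 difference 1.62 ± 0.24 SE, adjusted p = 0.00398) relative to aHF-SC. Nnt, the transhydrogenase that makes NADPH inside mitochondria, had 189 and 177 in HF-TAC, 626 and 586 in aHF-SC, and 733 and 739 in qHF-SC. It fell 4.03-fold (log2 difference -2.01 ± 0.14 SE, adjusted p = 0.000135) in HF-TAC relative to qHF-SC and 3.31-fold (log2 difference -1.73 ± 0.14 SE, adjusted p = 0.000595) relative to aHF-SC. With the mean of all probe sets the log2 differences from qHF-SC were 3.04 for Mthfd2 and -1.20 for Nnt, and with 50 added Mthfd2 gave 1.59. The malic enzymes Me2 and Me1 rose 3.35-fold (log2 difference 1.74 ± 0.24 SE, adjusted p = 0.00171) and 2.4-fold (log2 difference 1.26 ± 0.23 SE, adjusted p = 0.00688) in HF-TAC relative to qHF-SC; for Me2 the mean of probe sets gave 0.81 and 50 added gave 1.13. In aHF-SC relative to qHF-SC, Me2 rose 2.16-fold (log2 difference 1.11 ± 0.24 SE, adjusted p = 0.0404) and the cytosolic isocitrate dehydrogenase Idh1 rose 2.2-fold (log2 difference 1.14 ± 0.25 SE, adjusted p = 0.0441). The Me2 call ended with any array of these groups left out (adjusted p from 0.0762 to 0.241), the Idh1 call without qHF-SC replicate 2 or either aHF-SC array (adjusted p from 0.0967 to 0.218), and both with 16 or 50 added or with the replicate block (adjusted p from 0.0575 to 0.152).

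Nrf2 itself (Nfe2l2) and its inhibitor Keap1, named for their role rather than their change, passed no comparison. Nfe2l2 had 749.96 and 894 in HF-TAC, 792 and 694 in aHF-SC, and 859 and 700.4 in qHF-SC. Keap1 had 281 and 296 in HF-TAC, 305 and 379 in aHF-SC, and 329.6 and 379 in qHF-SC. Of 20 regulators and other targets of Nrf2, 2 were higher and 2 lower in HF-TAC than in aHF-SC, 3 higher and 4 lower in HF-TAC than in qHF-SC, and 1 went each way between aHF-SC and qHF-SC. These are 20%, 35% and 10% of the list, against 17.5%, 26.3% and 6.28% of all genes. Bach1, a repressor at the same elements, had 490.4 and 469 in HF-TAC, 487 and 471 in aHF-SC, and 1096 and 932 in qHF-SC. It fell 2.11-fold (log2 difference -1.08 ± 0.15 SE, adjusted p = 0.0126) in aHF-SC relative to qHF-SC, a call that ended with any array of these groups left out (adjusted p from 0.0571 to 0.0643) or with the mean of probe sets (adjusted p = 0.053). In HF-TAC relative to qHF-SC it fell 2.11-fold (log2 difference -1.08 ± 0.15 SE, adjusted p = 0.00224). Osgin1, an Nrf2 target, had 173 and 201 in HF-TAC, 351 and 466 in aHF-SC, and 126 and 62.1 in qHF-SC. It rose 4.58-fold (log2 difference 2.19 ± 0.33 SE, adjusted p = 0.0139) in aHF-SC relative to qHF-SC, which ended on leaving out aHF-SC replicate 1, aHF-SC replicate 2 or qHF-SC replicate 2 (adjusted p = 0.0529, 0.0674 and 0.0556) or with 50 added (adjusted p = 0.0676).

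Other targets on the list ran in both directions. Ephx1, the microsomal epoxide hydrolase, had 1056 and 729 in HF-TAC, 2176 and 2821 in aHF-SC, and 4249 and 5212 in qHF-SC, in non-overlapping order. It fell 5.36-fold (log2 difference -2.42 ± 0.23 SE, adjusted p = 0.00044) in HF-TAC relative to qHF-SC and 2.82-fold (log2 difference -1.50 ± 0.23 SE, adjusted p = 0.00525) relative to aHF-SC. For aHF-SC minus qHF-SC it was -0.93 ± 0.23 on the log2 scale (SE, adjusted p = 0.0673), which passed with a trended, robust spread (adjusted p = 0.0371) and with these groups fitted alone (adjusted p = 0.0423). Fth1, the ferritin heavy chain that stores iron, had 3969 and 4010.1 in HF-TAC, 7464 and 7262 in aHF-SC, and 8688 and 9204 in qHF-SC, again lowest in HF-TAC. It fell 2.24-fold (log2 difference -1.16 ± 0.14 SE, adjusted p = 0.00112) in HF-TAC relative to qHF-SC and 1.85-fold (log2 difference -0.88 ± 0.14 SE, adjusted p = 0.00584) relative to aHF-SC. Abcc4, an exporter of organic anions, had 139 and 74.2 in HF-TAC, 10.4 and 22.3 in aHF-SC, and 26.8 and 17.8 in qHF-SC, so that both HF-TAC arrays lay above all others. It rose 4.64-fold (log2 difference 2.22 ± 0.43 SE, adjusted p = 0.00805) in HF-TAC relative to qHF-SC and 6.65-fold (log2 difference 2.73 ± 0.43 SE, adjusted p = 0.00521) relative to aHF-SC. With 50 added these were 1.08 and 1.21, and the first did not pass without qHF-SC replicate 2 (adjusted p = 0.0597). Abcc1, an exporter of glutathione conjugates, rose 1.68-fold (log2 difference 0.75 ± 0.21 SE, adjusted p = 0.0463) in HF-TAC relative to aHF-SC. That call ended without HF-TAC replicate 1 or either aHF-SC array (adjusted p from 0.135 to 0.178), and under 75th percentile scaling, quantile normalization, either offset, the mean of probe sets, array weights, these groups alone and the replicate block (adjusted p from 0.0506 to 0.0918).

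Among 12 oxidant sources, 4 were called between HF-TAC and aHF-SC, 4 between HF-TAC and qHF-SC and 2 between aHF-SC and qHF-SC, each lower in the first-named population. These are 33.3%, 33.3% and 16.7% of the list, against 17.5%, 26.3% and 6.28% of all genes. Duox1, a dual oxidase that makes hydrogen peroxide at the plasma membrane, had 62.9 and 43.5 in HF-TAC, 115 and 173 in aHF-SC, and 552 and 954 in qHF-SC, in non-overlapping order. It fell 13.9-fold (log2 difference -3.79 ± 0.33 SE, adjusted p = 0.000283) in HF-TAC and 5.15-fold (log2 difference -2.37 ± 0.33 SE, adjusted p = 0.0115) in aHF-SC, each relative to qHF-SC. The second call ended on leaving out aHF-SC replicate 1 or qHF-SC replicate 2 (adjusted p = 0.0639 and 0.0677) and with 50 added (adjusted p = 0.0676), where the first was -2.92. Its maturation factor Duoxa1 had 509.8 and 347 in HF-TAC, 689.6 and 849 in aHF-SC, and 3639.8 and 4378 in qHF-SC. It fell 9.49-fold (log2 difference -3.25 ± 0.23 SE, adjusted p = 0.000126) in HF-TAC and 5.22-fold (log2 difference -2.38 ± 0.23 SE, adjusted p = 0.00348) in aHF-SC relative to qHF-SC. For HF-TAC minus aHF-SC the calls of Duox1 and Duoxa1 as lower ended with 16 added (limma adjusted p = 0.0766 and 0.0682) or 50 added (0.155 and 0.0975). That of Duoxa1 also ended with these groups fitted alone and with the replicate block (adjusted p = 0.0633 and 0.0694). Cyba, the membrane subunit of the NADPH oxidases, fell 5.73-fold (log2 difference -2.52 ± 0.17 SE, adjusted p = 0.000308) in HF-TAC relative to aHF-SC and 4.58-fold (log2 difference -2.19 ± 0.17 SE, adjusted p = 0.000199) relative to qHF-SC, which with 50 added were -1.63 and -1.37. Xdh, the xanthine dehydrogenase, fell 5.25-fold (log2 difference -2.39 ± 0.33 SE, adjusted p = 0.00317) and 3.23-fold (log2 difference -1.69 ± 0.33 SE, adjusted p = 0.00816) in the same comparisons; its difference from qHF-SC did not pass without qHF-SC replicate 1 or with 50 added (adjusted p = 0.0565 and 0.0534).

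A list of 29 genes held glutaredoxins and other thioredoxin fold proteins, with Txnip, the sestrins, the methionine sulfoxide reductases and Ero1a beside them. Of these 29, 3 were higher and 4 lower in HF-TAC than in aHF-SC. In HF-TAC relative to qHF-SC, 7 were higher and 3 lower. Between aHF-SC and qHF-SC 2 were called, both higher in aHF-SC. These are 24.1%, 34.5% and 6.9% of the list, against 17.5%, 26.3% and 6.28% of all genes. Txnip, the inhibitor that binds thioredoxin, had 1405 and 587 in HF-TAC, 1859 and 1940.5 in aHF-SC, and 3488 and 5459.9 in qHF-SC. It fell 4.81-fold (log2 difference -2.27 ± 0.40 SE, adjusted p = 0.00542) in HF-TAC relative to qHF-SC. That difference was -2.90 without HF-TAC replicate 1 and -1.64 without HF-TAC replicate 2, and without HF-TAC replicate 1 it passed relative to aHF-SC as well (-1.70, adjusted p = 0.0111). In HF-TAC relative to aHF-SC, Sesn3, a sestrin, fell 3.85-fold (log2 difference -1.94 ± 0.38 SE, adjusted p = 0.0135), Nxn, nucleoredoxin, fell 1.85-fold (log2 difference -0.89 ± 0.17 SE, adjusted p = 0.0117), and of the methionine sulfoxide reductases Msrb3 fell 1.95-fold (log2 difference -0.96 ± 0.25 SE, adjusted p = 0.0401) and Msra rose 2.16-fold (log2 difference 1.11 ± 0.26 SE, adjusted p = 0.0257). Each of these 4 calls ended with at least 1 array left out (adjusted p from 0.056 to 0.183), and for Nxn the difference was -1.66 with probe sets of suffixed ID left out. Relative to qHF-SC, Ero1a, an oxidase of the endoplasmic reticulum, rose 2.36-fold (log2 difference 1.24 ± 0.18 SE, adjusted p = 0.00206) in HF-TAC, Msra rose 2.27-fold (log2 difference 1.18 ± 0.26 SE, adjusted p = 0.0134) and Sesn1 fell 2.42-fold (log2 difference -1.28 ± 0.25 SE, adjusted p = 0.00803). The Msra call ended without either qHF-SC array (adjusted p = 0.0652 and 0.0706) and the Sesn1 call without qHF-SC replicate 2 (adjusted p = 0.0584). In aHF-SC relative to qHF-SC, the disulfide isomerases Pdia3 and Pdia4 rose 1.97-fold (log2 difference 0.98 ± 0.19 SE, adjusted p = 0.0303) and 1.82-fold (log2 difference 0.86 ± 0.19 SE, adjusted p = 0.0422), and both calls ended with any array of these groups left out (adjusted p from 0.0554 to 0.244).

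A list of 10 genes held transferases of other classes, with Clic1, Clic4, Eef1e1 and Alox5ap beside them. Of these, 1 was higher and 3 lower in HF-TAC than in aHF-SC, and 2 higher and 2 lower in HF-TAC than in qHF-SC. A second list of 10 held genes of selenoprotein synthesis and selenoproteins such as Selenow. There 1 was higher and 1 lower, and 3 higher and 1 lower, in the same comparisons. Between aHF-SC and qHF-SC limma called none of either list, where 4 and 3 had an unadjusted p under 0.05. The genes called are 40% of the first list in both comparisons, and 20% and 40% of the second, against 17.5% and 26.3% of all genes. In HF-TAC relative to qHF-SC, Alox5ap, which presents arachidonic acid for leukotriene synthesis, fell 4.14-fold (log2 difference -2.05 ± 0.19 SE, adjusted p = 0.000401), Clic1 fell 2.29-fold (log2 difference -1.20 ± 0.20 SE, adjusted p = 0.00447), and Eef1e1 and Gstcd rose 3.25-fold (log2 difference 1.70 ± 0.19 SE, adjusted p = 0.000726) and 1.81-fold (log2 difference 0.85 ± 0.20 SE, adjusted p = 0.0184). Clic4, like Clic1 an intracellular chloride channel protein, fell 1.71-fold (log2 difference -0.78 ± 0.18 SE, adjusted p = 0.0271) in HF-TAC relative to aHF-SC. The calls of Gstcd and Clic4 ended with at least 1 array left out (adjusted p from 0.0603 to 0.149). With 50 added to each intensity these too missed the threshold, as did the calls named above for Sesn3, Msrb3, Msra, Pdia3 and Pdia4 (adjusted p from 0.0503 to 0.107). With 16 added, Msrb3 and Msra missed it for HF-TAC minus aHF-SC, and Pdia3 and Pdia4 for aHF-SC minus qHF-SC (adjusted p from 0.0564 to 0.0753). Pdia4 also missed it with the mean of probe sets (log2 difference 0.49, adjusted p = 0.114). Selenow, a small selenoprotein, fell 2.76-fold (log2 difference -1.47 ± 0.16 SE, adjusted p = 0.000694) in HF-TAC relative to qHF-SC. Sephs2, which makes the selenium donor, its relative Sephs1 and the elongation factor Eefsec rose 2.55-fold (log2 difference 1.35 ± 0.17 SE, adjusted p = 0.00129), 1.64-fold (log2 difference 0.71 ± 0.18 SE, adjusted p = 0.0224) and 1.95-fold (log2 difference 0.96 ± 0.20 SE, adjusted p = 0.01). The Sephs1 and Eefsec calls ended with at least 1 array left out (adjusted p from 0.0652 to 0.141).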

How the data were processed

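Total RNA of sorted cells was measured on 6 Affymetrix mouse arrays, 2 for each of 3 groups. The deposited values are probe set intensities on a linear scale; RMA is named in the submitters' processing notes without version or role, and the step back from its usual log2 scale is not given in the sources used here. RMA-type summaries assume alike overall distributions and compress dim signals.

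The 45101 probe sets included 64 controls, which were dropped. By platform annotation 34945 of the rest had a single gene symbol, 932 several and 9160 none. Of the 34945, 34741 were found in RefSeq by Entrez identifier and 0 symbols changed. Each of 18193 genes was tested through the single-gene probe set with the highest mean log2 value over all arrays. One model of group means was fitted with limma 3.58.1 (R 4.3.3; lmFit, contrasts.fit, eBayes; residual degrees of freedom 3, prior 4.25), two-sided, with Benjamini-Hochberg adjustment over all genes within a comparison and a threshold of 0.05. The fit was checked on simulated data. Folds are powers of the log2 differences. No detection calls were used, and the number of arrays limits the precision; as nothing says that replicates were separate mice, p-values measure the spread between arrays, which may be technical.

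The genes and lists were chosen with earlier results of these data known. Full statistics go to members past the threshold, values to members over 500 in any group mean, and each list contributes, for each comparison, up to 4 genes with its largest changes past the threshold. Nfe2l2 and Keap1 are named outside this rule. Nothing in the labels says that replicate numbers pair the samples. Deviations of same-numbered arrays correlated at 0.08 (HF-TAC and aHF-SC), -0.13 (HF-TAC and qHF-SC) and 0.06 (aHF-SC and qHF-SC). These values cannot show whether such arrays shared mice or a sort. Alternatives changed the scaling, an offset before log2, a filter on dim genes, the probe set, the estimate of spread, the arrays in the fit and a replicate block, or left out single arrays.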

Additional observations from a re-analysis of the deposited data

How the results depend on the processing

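Counts of members called moved most between aHF-SC and qHF-SC. The 7 higher members became 3 with 16 added to each intensity and 2 with 50 added. The 1 lower member became 0 under median centring, either offset, the mean of probe sets, a fit of the 2 groups alone and the replicate block, all by limma; with all arrays in, 16 members had an unadjusted p under 0.05 there. The members higher in HF-TAC than in aHF-SC became 3 with 50 added. Leaving out 1 array gave 1 to 6 higher and 0 lower for aHF-SC minus qHF-SC, 3 to 6 higher and 8 to 14 lower for HF-TAC minus aHF-SC, and 4 to 8 higher and 8 to 14 lower for HF-TAC minus qHF-SC. The cause was not tested. Fits with an array left out hold fewer arrays, and counts over all genes with arrays left out or offsets added are not given here. With the replicate number as a block the counts were 7 higher and 0 lower, 5 and 11, and 9 and 9 in the same order of comparisons. Under every alternative run, 1 of 8, 8 of 17 and 10 of 18 called members stayed past the threshold, and no called difference changed sign. The scalings moved the median of all genes by under 0.05 log2 units. Signal over background limits the dim members: with 50 added, the called folds of Gstm6, Gstm7, Gstt1 and Txnrd1 moved by more than 1.5 times.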
